A study of Mus musculus with 12 samples.

Results

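Insertions that lay more than 50 kb and at most 200 kb upstream of the exon they were assigned to are called distal here, and insertions at 50 kb or less are called nearer. Over the 12 libraries, 425971 unique positions (chromosome, coordinate and strand) were distal, out of 1137865 unique positions within 200 kb. The remaining 711894 positions were nearer. The members were chosen by distance alone, on the strand of the insertion, so enrichment after sorting was not part of the choice.

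ORFtag is a gene-trap method in which a retroviral cassette integrates into the genome, drives transcription from its own promoter through a tag, and ends in a splice donor. The transcript reads into the host genome until the donor meets a splice acceptor, so that the tag is joined to the coding exons downstream of the insertion. The first exon of a gene has no acceptor, so a fusion usually starts at exon 2. An insertion far upstream can make the same fusion as one inside the first intron, provided that transcription continues that far and that no other acceptor is met on the way. Retroviral insertions are not uniform along the genome, and those of gammaretroviruses gather at promoters and enhancers.

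All libraries came from mouse embryonic stem cells (mESC) that carried a fluorescent reporter as a clonal line, were transduced with the cassette in all reading frames and were selected for resistance to G418. The activator reporter (7xTetO-pMYLPF-Puro-IRES-GFP) lay at a fixed site on chromosome 15, the tag was the DNA-binding protein TetR, and GFP-positive cells were sorted. The repressor reporter lay at the same site, with a BFP gene under pEF1 on one side of the 7xTetO sites and Puro-IRES-GFP under pPGK on the other, the tag was again TetR, and GFP-negative cells were sorted. In the post-transcriptional (PTGR) screen, the reporter with boxB RNA sites (Puro-IRES-GFP-10xBoxB) was randomly integrated, the tag was the RNA-binding peptide λN, and cells with low GFP were sorted, with a final sort after the boxB sites had been removed. Each screen had 2 sorted and 2 unsorted libraries, and each reporter line was 1 clone, so a screen's result is that of its clone. The libraries are insertion sites in genomic DNA and hold no expression values, so the cell type could not be checked against marker genes, and no fusion transcript was measured.

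The 6 unsorted libraries held 54088 to 233799 positions within 200 kb, with a median of 176175. The 6 sorted libraries were shallower, with 14705 to 60980 positions and a median of 19832. Of the distal positions, 22316 (5.24%) were seen in more than 1 library, against 6.09% of the nearer positions, and none was seen in more than 7.

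The acceptors that carried the most distal insertions of sorted cells are shown first, because they are the sequences through which the leading distal fusions would be spliced. They are taken from the 3 distal hits (defined with the hits below) with the most distal sorted insertions of each screen, with 20 intronic bases followed by 10 exonic bases, read 5′ to 3′ on the strand of the gene from the GRCm38.p6 assembly. The capitals mark the AG that ends the intron.

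Ep300: tcttttctatttgtttttAGattttggttc
Foxj2: acaactcctggctgggagAGgctcctcccc
Kmt2c: tagttaatttcttgctgtAGgcctcgaagt
Atf7ip: ccttttctttttatttaaAGattcagaatg
Sp3: cccccgcgctgtgcctgcAGctcccgaaaa
Olfr130: aatggaatattgtgtcatAGgtactgtatc
Tnrc6b: catgtcatttctttttacAGagagaaggag

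These windows are chr15:81600888-81600917 (plus strand) for Ep300, chr6:122820683-122820712 (plus) for Foxj2, chr5:25443899-25443928 (minus) for Kmt2c and chr6:136559744-136559773 (plus) for Atf7ip. They are chr2:72979623-72979652 (minus) for Sp3, chr17:38066019-38066048 (plus) for Olfr130 and chr15:80858661-80858690 (plus) for Tnrc6b. All lie at the 5′ end of exon 2 of a protein-coding transcript except that of Tnrc6b, which opens exon 5. The Ep300 acceptor was the one assigned in both the activator and the PTGR screen. The intronic bases hold 16 C or T of 20 for Ep300 and 15 for Atf7ip, but 8 for Foxj2 and 8 for Olfr130. Over the 10094 acceptors with a distal insertion in the unsorted libraries, 99.2% ended in AG and the C or T share of the 20 intronic bases was 70.1% ± 9.86 (SD over acceptors). Over the 40103 acceptors with nearer insertions alone, these values were 99.7% and 69.3% ± 9.58, so the distal acceptors differed from the others by less than 1 percentage point in base composition.

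Before sorting, distal insertions made up a nearly constant share of each library. The distal share of the 6 unsorted libraries ranged from 37.1% to 38.3%, with a median of 38.0%. By annotation alone (GENCODE vM21 protein-coding transcripts), 45.2% of the stranded bases within 200 kb upstream of an acceptor lay more than 50 kb from it. This is 1130 Mb, with 343 insertions per Mb over the unsorted libraries, against 463 per Mb in the nearer 1372 Mb. The insertion density of the distal bases was thus lower by a factor of 1.35. Of the distal unsorted insertions, 56.2% ± 0.587 (SD, n = 6) lay in no annotated gene, 27.3% ± 0.529 lay in a protein-coding gene of the opposite strand, 6.45% ± 0.379 lay within the body of the gene they were assigned to, and 19.2% ± 0.835 lay within 5 kb of the start of some protein-coding transcript.

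Distal insertions were almost all assigned to exon 2. In the unsorted libraries 97.5% ± 0.178 (SD, n = 6) of distal insertions were assigned to exon 2, 0.936% ± 0.0763 to exon 3 and 1.56% ± 0.108 to exon 4 or a later exon. Of the nearer insertions, 75.3% ± 0.448 were assigned to exon 2 and 18.4% ± 0.391 to exon 4 or later. The exon 2 share was thus 22.2 percentage points higher for distal insertions (SD 0.386, range 21.5 to 22.6, higher in 6 of 6 libraries), with p = 0.03125 in a two-sided exact sign-flip permutation test, the smallest value that 6 libraries allow. Each insertion was given its closest downstream exon other than a first exon, which for an insertion upstream of a gene is usually exon 2. Of the distal unsorted insertions, 6.45% ± 0.379 lay within their gene. The rule thus favored exon 2 for distal insertions. No fusion transcript was read, so the test describes where insertions lay relative to annotated exons and does not bear on splicing. The distal exon 2 share of the 6 unsorted libraries ran from 97.2% to 97.7%. It was 96.5% and 94.7% in the sorted activator libraries, 92.3% and 93.8% in the sorted repressor libraries, and 96.3% and 97.4% in the sorted PTGR libraries, so that all sorted libraries but the second PTGR library lay under the unsorted range; this difference was not tested. Of the distal insertions, exon 4 or a later exon took 2.17% to 3.28% in the sorted activator and repressor libraries. These shares were 2.42% and 1.76% in the sorted PTGR libraries and 1.43% to 1.74% in the 6 unsorted libraries. Single distal hits described below contributed to the sorted shares. Aff3, assigned to exon 5, had 38 of 5863 and 40 of 3678 distal insertions of the sorted activator libraries. Cdyl, assigned to exon 4, had 52 of 5398 and 47 of 3810 in the sorted repressor libraries, where those of Rnf220 were assigned to exon 3. The shares without these genes were not computed.

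After sorting, the distal share was lower in the screens for activators and repressors. It was 33.7% (95% Wilson interval 33.0 to 34.4) and 25.01% (24.3 to 25.7) in the sorted activator libraries, against 38.3% and 37.9% in the unsorted ones. It was 24.2% (23.7 to 24.8) and 25.1% (24.4 to 25.8) in the sorted repressor libraries, against 38.0% and 38.2%. In the PTGR screen it was 36.9% (36.5 to 37.3) and 37.8% (37.4 to 38.2) after sorting, against 37.1% and 38.0% before. The sorted and unsorted libraries thus did not overlap in the activator and repressor screens and overlapped in the PTGR screen, and the 2 sorted activator libraries differed from each other by more than counting error. These intervals cover counting error only, as do all intervals and standard errors of single libraries or summed counts below.

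**Figure D1:**
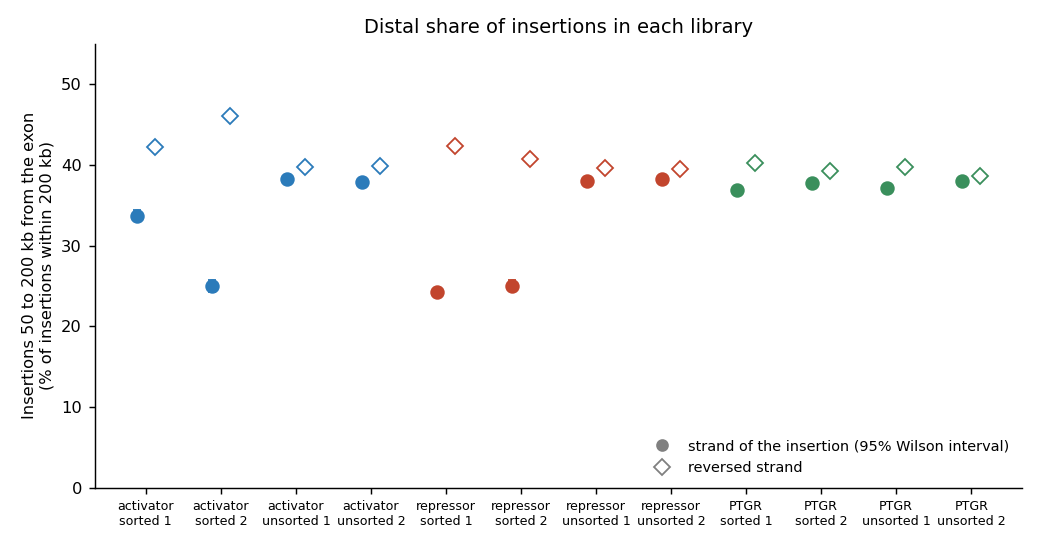
Share of insertions 50 to 200 kb from the assigned exon, in percent of all insertions within 200 kb, for each of the 12 libraries (x axis); filled circles are the assignment on the strand of the insertion (bars, 95% Wilson intervals, mostly smaller than the symbol) and open diamonds the assignment of the same positions on the reversed strand. The sorted activator and repressor libraries lie at 24.2% to 33.7%, under all 6 unsorted libraries at 37.1% to 38.3%.

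The sorted minus unsorted difference in the log2 odds of a distal insertion was -0.58 for activators, -0.91 for repressors and -0.01 for PTGR. The activator value rested on both sorted libraries unequally, with -0.28 without the second and -0.89 without the first. Averaged over the screens it was -0.50, with p = 0.0185 in a two-sided exact permutation test of the labels within screens (216 arrangements, smallest possible p 0.00926); single screens were not tested, since an exact permutation of 2 libraries against 2 cannot reach 0.05. Without the first or the second unsorted activator library the difference was -0.50 and -0.51, and p was 0.0741 in each case. The difference turned to 0.07 (p = 0.0463, same exact permutation test) when the genes that were hits from nearer insertions alone were left out of each screen, with 0.02 for activators, 0.14 for repressors and 0.06 for PTGR. Leaving out genes by their nearer insertions removes nearer insertions of sorted cells by construction.

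The lower share in the sorted activator and repressor libraries was seen at each step of distance beyond 50 kb. In the sorted repressor libraries, insertions at 50 to 75 kb made up 9.53% and 9.70% of those within 200 kb, against 11.4% and 11.5% in the unsorted libraries of the screen. At 150 to 175 kb these shares were 1.85% and 2.02% against 3.94% and 3.94%. In the sorted activator libraries they were 10.8% and 8.82% at 50 to 75 kb, against 11.5% and 11.5% in the unsorted ones. At 150 to 175 kb they were 3.17% and 2.15% against 3.91% and 3.86%. The median distance of distal insertions was 86.9 and 88.7 kb in the sorted repressor libraries and 94.5 and 88.9 kb in the sorted activator libraries, against 96.9 to 98.0 kb in the 6 unsorted libraries. In the sorted PTGR libraries it was 99.2 and 97.7 kb.

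**Figure D2:**
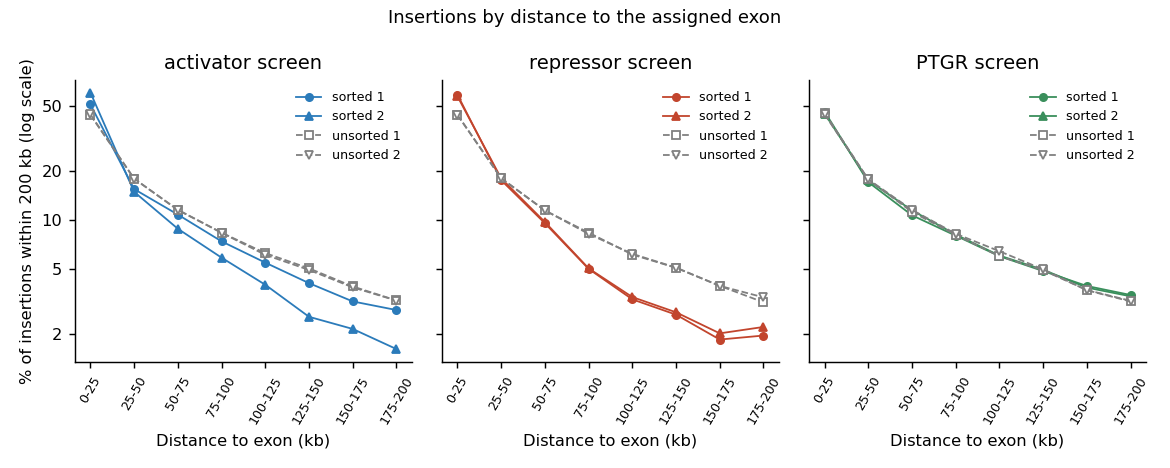
Insertions in each 25 kb step of distance to the assigned exon (x axis), as a percentage of all insertions within 200 kb (y axis, log scale), 1 line per library and 1 panel per screen. The sorted activator and repressor libraries lie under the unsorted ones of their screen at every step beyond 50 kb, and the sorted PTGR libraries run along the unsorted ones.

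The reversed strand served as a control, since an insertion cannot splice into an exon of the opposite strand. Assigned to the nearest non-first exon on the reversed strand, 38.7% to 39.8% of the unsorted insertions were distal, so the log2 odds of a distal insertion were lower on the true strand (mean difference -0.10, SD 0.0400, 6 of 6 libraries, p = 0.03125, two-sided exact sign-flip permutation test, the smallest possible). After sorting, the reversed distal share was higher, not lower: 42.2% and 46.1% for activators, 42.3% and 40.8% for repressors, and 40.3% and 39.2% for PTGR, the last of these within the unsorted range. The mean sorted minus unsorted difference of the reversed log2 odds was 0.14 (p = 0.0185, exact permutation test within screens). The difference between both strands in the effect of sorting was -0.64 (p = 0.0185, same exact permutation test).

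Distal insertions before sorting were spread over many genes. Of the 18268 genes with any insertion within 200 kb in the unsorted libraries, 9147 had a distal one, with a median of 12 and quartiles of 4 and 42, and 518 genes had distal insertions alone. The 91 genes (1%) with the most distal insertions held 12.6% of them, and 734 genes held 50% of them. Among the 8988 genes with at least 20 unsorted insertions, 2773 had more distal than nearer insertions and 2873 had no distal one.

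The 10 genes with the most distal unsorted insertions were Angel1, Lmod1, Zfp516, Pkd2l1, Zfp236, Pitpnc1, Cipc, Vwf, Cdk18 and Msra. Angel1 had 1066 distal insertions against 31 nearer ones, or 8.95 to 11.2 per 10,000 insertions in the 6 libraries (median 10.5). Lmod1, which encodes a leiomodin of muscle, had 927 (7.23 to 11.0 per 10,000, median 9.02) against 68. Vwf, which encodes von Willebrand factor of endothelial cells and platelets, had 743 (6.16 to 9.80, median 7.32) against 157. By annotation, 8 of the 10 genes could receive distal insertions over 150 kb or more (Msra over 266 kb, at more than 1 acceptor), and Cipc and Vwf over 134 and 135 kb. Some of these windows coincide. The insertions assigned to Angel1 (minus strand, chr12:86775896-86923417) and to Cipc (plus strand, chr12:86768744-86902656) lie in the same region, and those of Zfp516 and Zfp236 also face each other across a shared region. For Cdk18, 54.2% of the distal insertions lay inside a coding gene of the opposite strand, most often Lemd1 (48.9%). For Pitpnc1, 53.8% lay inside the gene itself. All Angel1, Pkd2l1 and Zfp236 insertions had a nearer exon of the same gene in RefSeq, at a median of 133, 35.2 and 98.0 kb. For Pkd2l1, 516 of the 792 insertions had that exon within 50 kb. A non-coding transcript had a nearer acceptor for 570 of 1066 insertions at Angel1, 920 of 927 at Lmod1 and all 743 at Vwf. This held for all insertions at Zfp516, Pkd2l1 and Zfp236, 578 of 736 at Cdk18 and 576 of 736 at Msra. At Pitpnc1 it held for 331 of 756 and at Cipc for 0 of 746. Which acceptor was used was not measured.

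Distal insertions were also counted over 3 lists of genes. All 38 long neuronal adhesion and signaling genes examined had distal unsorted insertions, with a median of 14 per gene and a distal share of all unsorted insertions of 46.0%, and the most were at Tenm4 (166) and Tenm3 (103). Of 39 developmental transcription factors, 38 had distal insertions (median over the 39 genes 15, distal share 61.0%), led by Prdm16 (274), Gli2 (253) and Tbx5 (192). Of 22 pluripotency factors, 14 had distal insertions (median over the 22 genes 22.5, distal share 13.2%), led by Tbx3 (206), Sall4 (161) and Jarid2 (121). Over all 18268 genes with unsorted insertions, the median was 1 and the distal share 37.9%. None of the genes of these lists was a distal hit, as defined next. For PTGR, where most could be tested, Fisher's exact test gave an unadjusted p under 0.05 for 5 of 23 neuronal genes, 1 of 19 developmental factors and 0 of 6 pluripotency factors, with median log2 odds ratios of 0.77, 0.32 and -0.10, against 448 of 3816 and a median of 0.16 over all genes tested. For activators this p was reached by 1 of 2, 0 of 4 and 0 of 4 genes, against 88 of 1039 over all genes, and for repressors by 0 of 2, 1 of 3 and 0 of 1, against 86 of 828.

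The next comparison asked which genes were enriched after sorting by their distal insertions alone. For each gene, the distal insertions of the 2 sorted libraries were summed and compared with those of all 6 unsorted libraries (Fisher's exact test, one-sided), with all insertions within 200 kb as denominators. A distal hit had at least 3 distal sorted insertions, a log2 odds ratio no lower than 1 and an adjusted p (Benjamini-Hochberg over all genes tested) under 0.001. The activator screen had 22 distal hits among 1039 genes tested (2.12%), the repressor screen 29 among 828 (3.5%) and the PTGR screen 7 among 3816 (0.183%). This test carries the counting error of summed libraries and not the spread between replicates. edgeR's quasi-likelihood test, which takes that spread from the 4 libraries of a screen alone, called 14, 0 and 2 genes at the same thresholds. Its unadjusted p was under 0.05, with a higher count in sorted cells, for 47, 78 and 58 genes. With the replicate number as a block, edgeR called 13, 20 and 4 genes, and DESeq2 called 15, 23 and 2. Of the 22, 29 and 7 hits by Fisher's exact test, 21, 28 and 6 had distal insertions in both sorted libraries. The hits held 14.2%, 28.6% and 1.48% of the distal insertions of sorted cells, against 0.587%, 1.05% and 0.237% of those of unsorted cells; these values chose the hits and are given as a description. The sets of the activator and repressor screens shared no gene, and Ep300 was the one gene shared between the activator and PTGR screens. In the PTGR screen, edgeR without the block and DESeq2 did not call Ep300. Since all screens use the same 6 unsorted libraries, these sets are not independent.

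Most distal hits were also hits from their nearer insertions. This held for 17 of 22 activator hits (77.3%), 18 of 29 repressor hits (62.1%) and 5 of 7 PTGR hits (71.4%). Over all genes tested for distal insertions, 29 of 1039, 35 of 828 and 19 of 3816 were hits from nearer insertions. Seen from the nearer hits, 12.8% of 133, 9.09% of 198 and 8.47% of 59 were distal hits.

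The strand control was also set beside the distal hits. The hits were chosen by their sorted insertions on the true strand, so the strand counts at the hits are a description. At the hits themselves, the reversed assignment gave fewer insertions: 57 against 1359 in the sorted activator libraries, 516 against 2633 in the repressor libraries (442 of them at Zfp472) and 385 against 661 in the PTGR libraries (296 of them at Gm5485), whereas the unsorted libraries gave 2087 against 2273, 3989 against 4065 and 964 against 917. Over all genes, however, the reversed assignment gave more distal hits than the true strand did, with 47 of 1062 genes (4.43%), 80 of 912 (8.77%) and 23 of 3872 (0.594%). Of the positions behind these reversed hits, 97.0%, 91.2% and 85.0% were assigned on the true strand to a gene that was a hit from all its insertions. An example is Prph2 in the activator screen, whose reversed distal insertions were insertions of Bicral, a BAF chromatin remodeling subunit, on the true strand in 1297 of 1306 cases. Ss18 (activators), Zfp472 and Gm10324 (repressors) and Gm5485 (PTGR) were distal hits on both strands.

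In the activator screen the distal hits included a histone acetyltransferase, a histone methyltransferase, Mediator subunits, Notch coactivators and forkhead factors. Ep300, which encodes the acetyltransferase and coactivator p300, had 113 and 178 distal insertions in the sorted libraries, or 65.0 and 121 per 10,000 insertions. The unsorted libraries had 1.66 to 3.21 per 10,000 (median 2.31), and both sorted libraries lay far above them. The log2 odds ratio was 5.24 ± 0.125 (SE, Fisher's exact test, adjusted p = 8.82e-283). Reversed insertions of Ep300 numbered 4 in the sorted and 184 in the unsorted libraries. The sorted distal insertions lay at chr15:81486324-81539095, a median of 78.8 kb from the exon, and 99.3% of them were outside any annotated gene.

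Foxj2, a forkhead transcription factor, had 117 and 142 distal insertions (67.3 and 96.6 per 10,000 against 2.40 to 3.90, median 3.00, in the unsorted libraries; log2 odds ratio 4.64 ± 0.120). All 259 lay inside Slc2a3, a glucose transporter gene of the opposite strand. Kmt2c, a histone H3K4 methyltransferase, had 65 and 73 (37.4 and 49.6 against 4.49 to 5.22, median 4.88; log2 odds ratio 3.16 ± 0.139), of which 80.4% lay in no annotated gene. Both genes were also hits from nearer insertions, with log2 odds ratios of 5.65 and 4.16.

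Med26, a subunit of the Mediator complex, had 35 and 48 distal insertions (20.1 and 32.6 per 10,000 against 0.128 to 0.385, median 0.286). In RefSeq, all 83 had a nearer exon of Med26 itself, at a median distance of 7.27 kb, and 45.8% lay within 5 kb of an annotated start of the gene. Bicral had 6 and 43 distal insertions (3.45 and 29.2 against 0.170 to 0.555). All 49 likewise had a nearer RefSeq exon of the gene itself, at a median of 28.8 kb, and none lay within 5 kb of an annotated start of Bicral. With RefSeq exons the insertions of Med26 and Bicral are therefore not distal. The sorted libraries differed widely for Bicral, and without the second its adjusted p was 0.00147 (Fisher's exact test) and it was no longer a hit.

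Maml2, a coactivator of Notch signaling, had 34 and 46 distal insertions (19.5 and 31.3 per 10,000 against 0.113 to 0.530, median 0.179; log2 odds ratio 6.73 ± 0.336, the largest of the activator screen). All lay inside the gene, upstream of exon 2. Aff3, of the AF4 family of elongation factors, had 38 and 40 (21.8 and 27.2 against 0.115 to 0.433, median 0.340). All 78 were assigned to exon 5 and lay inside the gene, a median of 99.3 kb away, with no nearer insertion in either sorted library. Wwtr1, which encodes the YAP relative TAZ, had 7 and 57 (4.02 and 38.8 against 0 to 0.771), all inside the gene and assigned to exon 3. DESeq2 did not call Wwtr1 (adjusted p = 0.0791), whereas edgeR did. Foxo1, a forkhead factor, had 15 and 33 (8.62 and 22.4 against 0 to 0.578), of which 89.6% lay inside the gene. Ss18, a BAF subunit, had 26 and 23 (14.9 and 15.6 against 0.226 to 0.428), and 21 reversed insertions in the sorted libraries, all of which were insertions of Taf4b, a TFIID subunit, on the true strand.

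The remaining activator hits are named to complete the list: Med14, Aff1, Mllt3, Add3, Tfeb, Pxn, Tox, Mrtfa, Tox3, Tex2, Tmtc3 and Maml3, with 4 to 47 distal sorted insertions each. Mllt3 encodes a chromatin reader of the same elongation complexes as AFF proteins, and Tfeb and Mrtfa encode a lysosomal transcription factor and a coactivator of serum response factor. Some of them rested on 1 library or on adjacent positions. Tmtc3 had 6 and 0 distal insertions, all inside Cep290 on the opposite strand, with an interquartile spread of 0.005 kb. Tex2 had 1 and 6, with an interquartile spread of 0.006 kb. When positions within 5 bp were merged, Tmtc3, Tex2, Add3 (21 and 5) and Maml3 (2 and 2) were no longer hits. These 4 genes and Tox, Mrtfa and Tox3 also lost the call when 1 of the sorted libraries was left out. Aff1, Add3, Pxn, Mrtfa, Tox3, Tex2, Tmtc3 and Maml3 were not called by edgeR, with or without the replicate number as a block. Aff1 was not called by DESeq2 either (adjusted p = 0.00119). Tex2 was the activator hit that was not a hit from all its insertions.

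**Figure D3:**
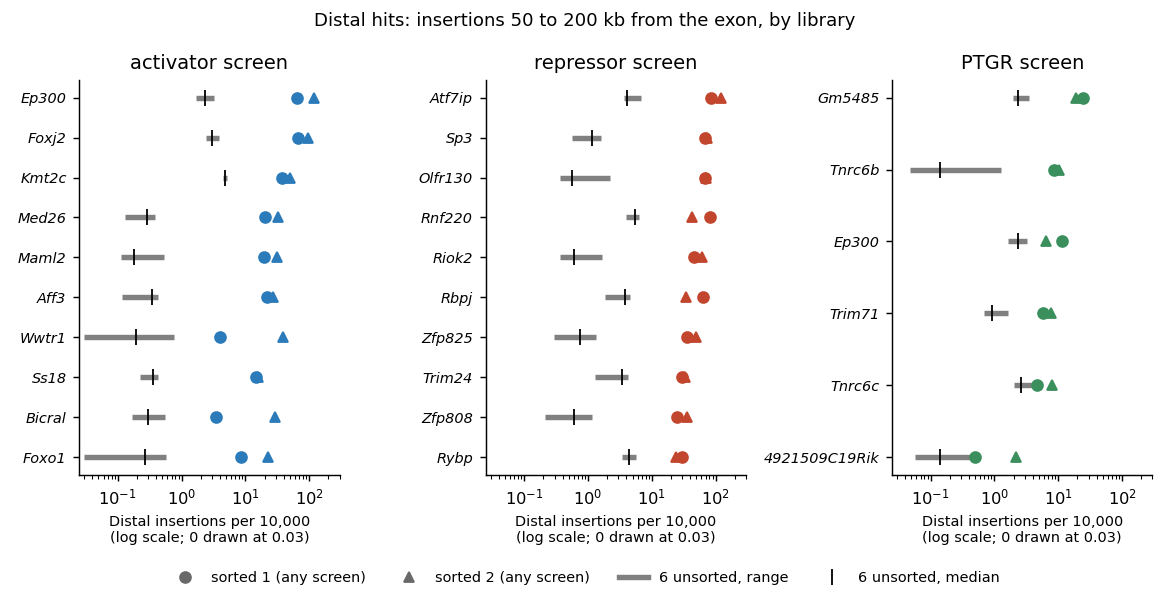
Distal insertions per 10,000 insertions within 200 kb (x axis, log scale) at the distal hits with the most distal sorted insertions in each screen, with circles and triangles for sorted libraries 1 and 2, and grey bars with a black tick for the range and median of the 6 unsorted libraries. In the activator and repressor panels both sorted libraries lie above the unsorted range at every gene; values of 0 are drawn at 0.03.

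In the repressor screen the distal hits included Atf7ip, Rbpj and Rybp, which act in H3K9 methylation, Notch signaling and Polycomb repression. Atf7ip, a partner of the H3K9 methyltransferase SETDB1, had 191 and 186 distal insertions (85.8 and 122 per 10,000), against 3.70 to 6.89 (median 4.07) in the unsorted libraries. The log2 odds ratio was 4.38 ± 0.0987 (Fisher's exact test, adjusted p = 7.62e-295), and 4 reversed insertions were found in the sorted and 465 in the unsorted libraries. The insertions spanned chr6:136470798-136506513, a median of 69.3 kb from exon 2, with 91.2% in no annotated gene.

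Sp3, a GC-box transcription factor, had 152 and 113 (68.3 and 74.3 against 0.555 to 1.61, median 1.17), all in no annotated gene. Rybp, a subunit of a Polycomb repressive complex, had 66 and 36 (29.6 and 23.7 against 3.42 to 5.62, median 4.34), and Trim24, a bromodomain cofactor, had 67 and 50 (30.1 and 32.9 against 1.29 to 4.30, median 3.44). With distal insertions taken from 100 kb, Trim24 had a log2 odds ratio of -0.05. Its sorted distal insertions lay a median of 74.8 kb away, and those of the unsorted libraries 113 kb away. Rnf220, a ubiquitin ligase, had 185 and 66 (83.1 and 43.4 against 4.00 to 6.25), and Rbpj, the DNA-binding factor of the Notch pathway, had 143 and 52 (64.2 and 34.2 against 1.85 to 4.49). All distal sorted insertions of Rnf220 and Rbpj lay inside the gene, and those of Rnf220 were assigned to exon 3.

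At several repressor hits, another acceptor lay nearer to the insertions than the assigned exon. Riok2, a kinase of ribosome maturation, had 101 and 94 distal insertions (45.4 and 61.8 per 10,000 against 0.370 to 1.64, median 0.613), all at a median of 181 kb, and none nearer. In RefSeq all 195 had a nearer coding exon of another gene: 141 of Gm38396 at a median of 6.81 kb, 31 of Gm5165 and 23 of Gm6712. Olfr130, an olfactory receptor gene, had 151 and 109 (67.8 and 71.7 against 0.370 to 2.24, median 0.554), with no nearer insertion. All 260 had a nearer exon of an unprocessed pseudogene, Gm20541, and none had a nearer RefSeq coding exon. Zfp825, a zinc finger gene, had 79 and 76 (35.5 and 49.99 against 0.289 to 1.32) and Zfp808 had 56 and 55 (25.2 and 36.2 against 0.214 to 1.15), and all of their insertions had a nearer acceptor of a non-coding transcript, most often Gm46430 (79 of 155) and Gm40977 (91 of 111).

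Over all 58 hits, 13 had a nearer acceptor of a non-coding transcript for most of their sorted distal insertions, 11 of them in the repressor screen, and 9 had a RefSeq coding exon within 50 kb, 3 of them of the same gene (Med26, Bicral and Zfp423). Among the distal unsorted insertions as a whole, 34.5% ± 0.290 (SD, n = 6) had a nearer acceptor of a non-coding transcript, 76.7% ± 0.264 had the same exon in RefSeq and 3.97% ± 0.116 had a RefSeq coding exon within 50 kb.

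The other repressor hits are named to complete the list: Cdyl, Zfx, Zfp423, Etv6, Arid1b, Zfp960, Zfp472, Zfp72, Phf21a, Cdyl2, 4930522L14Rik, Spen, Cdk13, Gm10324, Nlrp4f, Siglecf, Gm42416, Zfp609 and Zfp936. Cdyl, a chromodomain corepressor, is described for its position, which was seen first: it had 52 and 47 insertions (23.4 and 30.9 per 10,000 against 0 to 0.918), all assigned to exon 4, with an interquartile spread of 0.819 kb and 99.0% within 5 kb of an annotated start of Cdyl. At nearer distances Cdyl had 4 sorted insertions and was not a hit. Gm42416 had 0 and 8, with an interquartile spread of 0.007 kb, and was no longer a hit when positions within 5 bp were merged or without the second sorted library. Arid1b, Cdyl2, 4930522L14Rik, Spen, Cdk13, Siglecf and Zfp609 lost the call without the first sorted library, Nlrp4f without the second, and Zfp936 without either. Cdyl2, Spen, Phf21a and Zfp423 encode chromatin or transcription cofactors, with 18 and 4, 14 and 5, 16 and 12, and 35 and 25 distal insertions.

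**Figure D4:**
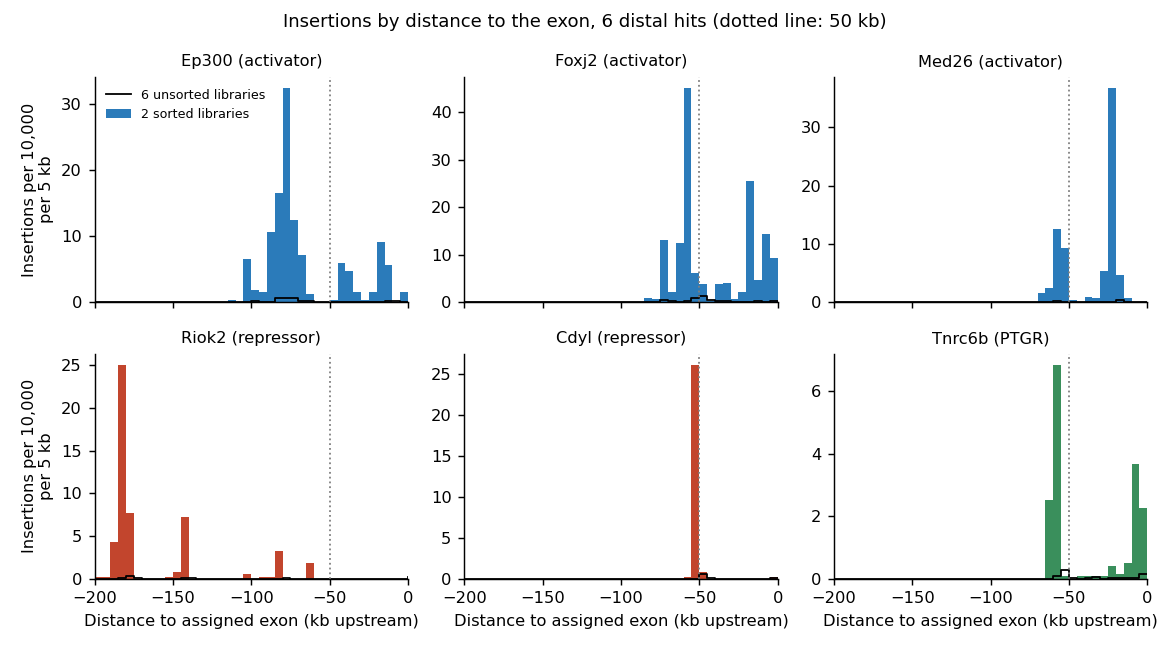
Insertions per 10,000 insertions within 200 kb in 5 kb steps (y axis) by distance upstream of the assigned exon (x axis, exon at 0) for 6 distal hits, with colored bars for the 2 sorted libraries summed and black lines for the 6 unsorted libraries summed; the dotted line is at 50 kb. Ep300, Foxj2, Med26 and Tnrc6b have both distal and nearer groups of sorted insertions, and Riok2 and Cdyl have nearly all of them beyond 50 kb.

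In the PTGR screen the distal hits had log2 odds ratios of 1.26 to 5.10, against 1.81 to 6.73 for activators and 2.00 to 6.03 for repressors. Tnrc6b and Tnrc6c encode GW182 proteins, which link Argonaute to deadenylation. Tnrc6b had 53 and 60 distal insertions (8.69 and 10.2 per 10,000) against 0.0482 to 1.29 (median 0.142) in the unsorted libraries, with a log2 odds ratio of 4.71 ± 0.273 (Fisher's exact test, adjusted p = 1.07e-74). Most of its unsorted insertions came from the PTGR screen itself, with 23 and 7, against 1 to 3 in each unsorted library of the other screens. Against the unsorted PTGR libraries alone, edgeR gave a log2 fold change of 2.95. All sorted distal insertions of Tnrc6b lay inside the gene and were assigned to exon 5, with an interquartile spread of 0.863 kb. Tnrc6c had 28 and 47 (4.59 and 8.03 against 2.07 to 4.07, median 2.61; log2 odds ratio 1.26 ± 0.189), and without the second sorted library it was no longer a hit (0.81, adjusted p = 0.121, Fisher's exact test). Trim71, an RNA-binding TRIM-NHL protein of stem cells, had 35 and 45 (5.74 and 7.68 against 0.678 to 1.66, median 0.915).

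Gm5485 had the most distal insertions of the PTGR screen, with 152 and 110 (24.9 and 18.8 against 1.98 to 3.51, median 2.37). All 262 lay inside Morc1, a gene of the opposite strand, a median of 196 kb from the exon and thus close to the limit of assignment. Reversed insertions assigned to Gm5485 numbered 296 in the sorted PTGR libraries and 673 in the sorted repressor libraries, and on the true strand all were insertions of Morc1. Ep300 had 69 and 38 distal insertions here (11.3 and 6.49 against 1.66 to 3.21, log2 odds ratio 1.88 ± 0.167), with 35 reversed insertions. It was not called by edgeR's quasi-likelihood test (adjusted p = 0.0410) or by DESeq2 (adjusted p = 0.0677). Both methods called Gm5485 and Tnrc6b alone among the PTGR hits. With the replicate number as a block, edgeR also called Ep300 and Trim71. The remaining hits were 4921509C19Rik, with 3 and 13 (0.492 and 2.22 against 0.0570 to 0.555), the first within the range of the unsorted libraries and no hit without the second (log2 odds ratio 1.40), and Cd180, with 8 and 0.

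Genes that the study discusses were described as a further group; they were chosen by the study on these samples, so their direction is not independent evidence. A gene could be tested only with 3 distal insertions in sorted cells, which favors hits among those tested, so the counts that follow are a description. Of 12 named for activation, Ep300, Kmt2c and Pxn could be tested and were hits, against 22 of 1039 over all genes. Pxn, which encodes the adhesion protein paxillin, had 4 and 7 distal insertions (2.299 and 4.76 against 0 to 0.459), beside 281 nearer ones. Without the second sorted library its distal log2 odds ratio was 2.97 and it was no longer a hit, nor was it one by edgeR. Of 5 named for repression, Gm10324 alone could be tested and was a hit, with 6 and 7 distal insertions (2.69 and 4.604 against 0 to 0.402). For 10 of its 13 insertions RefSeq had a nearer coding exon of another gene, Gm46425. Of 14 named for PTGR, 6 could be tested and Tnrc6b and Tnrc6c were hits. Ago2 (3 and 3 distal insertions), Tnrc6a (1 and 2), Smg1 (1 and 3) and Eif4enif1 (6 and 18) were not, with log2 odds ratios of 1.98, 1.22, 1.10 and 1.27 and adjusted p of 0.232, 0.636, 0.605 and 0.0539 in Fisher's exact test. All 4 were hits from their nearer insertions.

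A second test per gene asked whether the split between distal and nearer insertions differed after sorting, given the number of insertions of the gene. It used a two-sided Fisher's exact test on genes with at least 10 sorted insertions and at least 1 distal insertion, called at an adjusted p below 0.05. For activators, 35 of 290 genes (12.1%) had a lower distal share in sorted cells and 4 (1.38%) had a higher one. For repressors these were 52 (22.8%) and 9 (3.95%) of 228 genes, and for PTGR 11 (0.372%) and 4 (0.135%) of 2960. With the unsorted libraries of the same screen alone as background, fewer genes were called. The lower and higher counts were then 29 and 2 of 284, 41 and 6 of 219, and 3 and 0 of 2883. Of the genes called against all 6 unsorted libraries, 34 of 39, 49 of 61 and 9 of 15 were hits from nearer insertions. This share was not counted over all genes tested, and the minimum of 10 sorted insertions favors such hits.

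Genes with a lower distal share included the following. Nfe2l2, which encodes the stress response factor NRF2, had 5 distal among 130 sorted insertions (4 of 53 and 1 of 77), or 3.85%, against 78.1% of 269 unsorted insertions. Crebbp, the acetyltransferase related to p300, had 7 of 17 and 6 of 30 (27.7%) against 92.4% of 184, with a log2 odds ratio of 1.28 for distal and 6.27 for nearer insertions. Gon4l and Stat6 had 2.33% and 3.57% against 53.6% and 51.9%. Pprc1, a coactivator of the PGC-1 family, had 0 of 445, which allows a share of up to 0.674%, against 18.3% of 208. The adjusted p values ran from 9.11e-48 for Nfe2l2 to 5.47e-15 for Stat6 (Fisher's exact test), and both sorted libraries lay under the pooled unsorted share at each of these 5 genes.

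In the repressor screen, Ncor1, a corepressor of nuclear receptors, had 7 of 256 and 3 of 136 sorted insertions in the distal range (2.55%), against 52.3% of 998 unsorted ones (adjusted p = 1.89e-80, Fisher's exact test). Zmynd8, a chromatin reader, had 1.57% of 318 against 46.8% of 963, and Arid1a, a BAF subunit, had 0.570% of 351 against 42.9% of 282. Ipo7, a nuclear import receptor, had 0 of 909, which allows up to 0.330%, against 13.4% of 381. Klf8, a zinc finger factor, had 1.12% of 356 against 22.4% of 624. In the PTGR screen, Tnrc6c (42.9% of 175 against 81.0% of 331), Ep300 (60.5% of 177 against 85.5% of 290), Ikbkg (9.80% of 51 against 62.8% of 78), Cnot2, a deadenylase subunit (1.30% of 154 against 21.9% of 105) and Gramd4 (31.3% of 32 against 84.5% of 103) had lower distal shares. Tnrc6c and Ep300 were thus both distal hits and genes with a lower distal share, with log2 odds ratios of 1.26 and 1.88 for distal and 3.76 and 3.83 for nearer insertions.

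**Figure D5:**
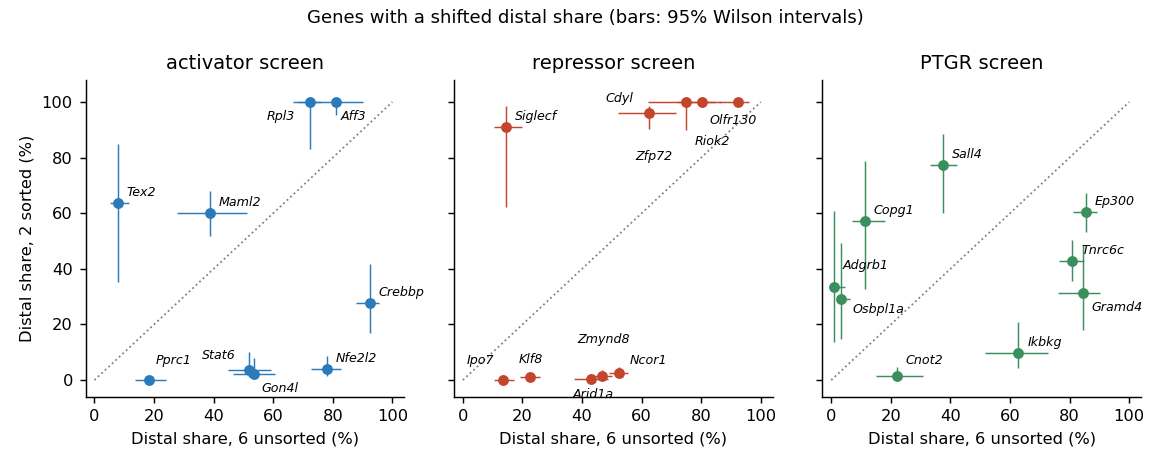
Distal share of a gene's insertions in the 2 sorted libraries (y axis, percent) against the 6 unsorted libraries (x axis, percent) for up to 5 genes of each direction with the lowest p in each screen; bars are 95% Wilson intervals and the dotted line marks equal shares. Most genes below the line in the activator and repressor panels have sorted shares under 5%.

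Genes with a higher distal share were few. In the activator screen they were Tex2 (63.6% of 11 sorted insertions against 7.75% of 271), Aff3 (100% of 78 against 81.0% of 42), Rpl3 (100% of 19 against 72.3% of 495) and Maml2 (60.2% of 133 against 38.7% of 62). By sorted library, Tex2 had 1 of 3 and 6 of 8, and Maml2 had 34 of 41 and 46 of 92. The second Maml2 share (50%) lay within the range of the single unsorted libraries (22.2% to 75%). In the repressor screen the lowest p values were those of Riok2 (100% of 195 against 80.4% of 112), Cdyl (96.1% of 103 against 62.4% of 93), Siglecf (90.9% of 11 against 14.4% of 208), Olfr130 (100% of 260 against 92.4% of 118) and Zfp72 (100% of 34 against 42 of 56 insertions). In the PTGR screen they were Sall4, a pluripotency factor (77.4% of 31 against 37.4% of 430), Osbpl1a (29.2% of 24 against 3.35% of 269), Copg1 (57.1% of 14 against 11.3% of 124) and Adgrb1 (33.3% of 12 against 0.840% of 119). None of these 4 PTGR genes was a distal hit. Against the unsorted PTGR libraries alone, no gene was called with a higher distal share. For Sall4 the log2 odds ratio was 0.35 for distal and -2.17 for nearer insertions.

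The share of distal insertions inside the assigned gene was above the unsorted range in 5 of the 6 sorted libraries, a difference that was not tested. The share inside was 8.43% and 11.2% in the sorted activator libraries, 14.4% and 11.1% in the sorted repressor libraries and 8.16% and 6.54% in the sorted PTGR libraries, against 6.02% to 7.12% in the 6 unsorted libraries. Much of the excess lay at the distal hits. With the 2 sorted libraries summed, the shares were 9.50%, 13.0% and 7.36% (activators, repressors, PTGR). Without the distal hits of each screen they were 6.73%, 7.29% and 7.21%. The unsorted libraries summed, with all genes kept, had 6.49%. Among the 58 hits, 19 had most of their sorted distal insertions inside the gene, 31 had most in no annotated gene and 3 (Foxj2, Tmtc3 and Gm5485) had most inside a coding gene of the opposite strand. In 51 of the 58 hits all sorted distal insertions were assigned to a single acceptor. The exon most often assigned was exon 2 for 48 hits and a later exon for 10. Both counts describe the assignment to the closest downstream exon and not splicing, and they were not made over all genes.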

How the data were processed

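The 12 libraries hold integration sites read by inverse PCR. The authors trimmed reads with Trim Galore 0.6.0, aligned them to mm10 with Bowtie2, filtered duplicates and low-quality alignments (SAMtools 1.9), and gave each insertion the closest downstream exon, first exons excepted, of protein-coding GENCODE transcripts. The deposited lists give the distance to that exon in bases and the exon number, both held as scores, and the deposited gene tables give insertion counts summed over replicates. Columns of those tables with fold changes, p-values and calls hold the study's own comparisons and were not used. Each position was counted once per library, since lines were repeated, mainly in both unsorted repressor libraries and the second sorted PTGR library. The sums made here equaled the deposited background counts for 99.1% of 20409 genes, and the deposited sorted PTGR counts, which include repeats (128486 against 119540 here), for 79.3%.

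Members, gene lists and tests were chosen with earlier results of these data known. Named genes are, per screen, the 10 distal hits with the most distal sorted insertions among those with at least 1 in each sorted library, the 10 genes with the most distal unsorted insertions, study-named genes with at least 3 distal sorted insertions, and up to 5 genes of each direction with the lowest p among genes with a shifted distal share; other lists are given by counts and up to 3 examples. Shares were compared by exact permutation tests and genes by Fisher's exact tests (SciPy 1.17.1, Benjamini-Hochberg by statsmodels 0.14.6), which were tested on simulated data. Alternatives included edgeR 4.0.16 and DESeq2 1.42.0 on distal counts of the 4 libraries of a screen (at least 3 insertions in all). Locations came from GENCODE vM21 and RefSeq annotation of GRCm38.p6, the build that mm10 names. The distances led to an exon start of the assigned gene in vM21 for 99.7% of distal insertions. The authors used a later GENCODE release, so single exons may differ. An acceptor sequence and a gene that these rules would name are not reported here.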

Additional observations from a re-analysis of the deposited data

Results flagged for a closer look

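Over 7 measures of the 6 unsorted libraries, 2 libraries stood apart from the other 5 by Dixon's test, which flags about 1 in 20 groups by chance. The first unsorted PTGR library had the lowest distal share, at 37.1%. The second unsorted PTGR library, which was the shallowest with 54088 insertions, had the lowest reversed distal share, at 38.7%. No sorted group had enough libraries to be examined this way.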

How the results depend on the processing

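The lower distal share of sorted cells kept its sign under every alternative except with genes that were nearer hits left out, where the mean difference in log2 odds was 0.074 (0.024, 0.14 and 0.057 for activators, repressors and PTGR), and except for small PTGR values around 0. Leaving out 1 library at a time gave means of -0.60 to -0.40, and p was 0.0741 (exact permutation test) without the first (-0.50) or second (-0.51) unsorted activator library, and the cause was not tested. The repressor difference was -0.83 with positions within 5 bp merged, -0.83 without positions seen in several libraries, -0.80 and -1.02 with distal insertions taken from 25 and from 100 kb, and -0.98 with RefSeq exons, an alternative chosen after seeing the data. Distal hits numbered 39, 51 and 14 (activators, repressors, PTGR) from 25 kb and 8, 10 and 1 from 100 kb, and 15 to 18, 22 to 26 and 6 to 10 with 1 sorted library left out. PTGR had 12 with repeated lines counted. Trim24 had a distal log2 odds ratio of -0.052 from 100 kb. Genes with a shifted distal share numbered 11, 38 and 8 from 100 kb, 24 for PTGR from 25 kb, 3 for PTGR against its own unsorted libraries, and 30, 36 to 48 and 6 to 8 with 1 sorted library left out. edgeR called 14, 0 and 2 distal hits without and 13, 20 and 4 with the replicate block, and DESeq2 called 2 for PTGR. The replicate numbers are shared names and were not taken as pairs. The paper describes unsorted cells set aside from a selected culture whose remaining cells were sorted, but the labels do not link single libraries. The deviations of same-numbered libraries correlated at 0.02, -0.02 and 0.30. With 2 libraries a group and shallower sorted libraries, these values cannot decide the pairing. The replicate block left the mean difference in distal share at -0.50 (p = 0.03125, exact sign-flip permutation test). On simulated counts for repressors, edgeR recovered 0 of 100 genes raised 8-fold and 87 of 100 raised 32-fold, against 79 and 100 by DESeq2; the cause was not tested. Depth left 1039 of 3451, 828 of 2930 and 3816 of 6980 genes with distal sorted insertions at the 3 needed for a test.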
